A study of Tremella fuciformis and Annulohypoxylon stygium and Tremella fuciformis
Annulohypoxylon stygium with 5 samples.

Results

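Genes whose closest SwissProt protein is named for mating, meiosis, sporulation or conidia were followed in Tremella fuciformis and Annulohypoxylon stygium grown alone and with each other. They were the assembled transcripts (unigenes) with a SwissProt hit at an e-value of at most 1e-20 and a description holding pheromone, mating, meiosis, meiotic, sporulation, karyogamy, homeobox or conidi. A unigene also had to reach 1 FPKM (fragments per kilobase of transcript, scaled to library size) in a library of its own fungus and 10 times the highest value in the libraries of the other fungus. Of 42507 unigenes, 110 met the rule, 45 of them from T. fuciformis and 65 from A. stygium. Since members and their fungus were chosen by FPKM in the 4 single-fungus libraries, the presence of a member in its fungus is a description and no finding.

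T. fuciformis is a basidiomycete, the edible snow fungus, and A. stygium is the ascomycete it is cultivated with. The study sequenced RNA of wild-type mycelia in 5 groups of 1 library each. T. fuciformis grown alone was 2 weeks old and A. stygium grown alone was 1 week old (the alone libraries). T. fuciformis mycelium that had interacted with A. stygium, A. stygium mycelium that had interacted with T. fuciformis (the contact libraries) and mycelium of both fungi together (the dual library) were taken 1 week after interaction. The labels state neither the total age of these 3 cultures nor whether a library pools several, and the effect of age cannot be told apart from that of the partner. With 1 library per group no difference has a replicate check or a test, and every difference given is between these libraries.

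In basidiomycetes, mating partners recognise each other by small lipid-modified pheromone peptides and Ste3-type receptors, which pass the signal through a G protein and a mitogen-activated protein kinase relay. In meiosis, Spo11 (rec12 in Schizosaccharomyces pombe) cuts the chromosomes, and the recombinase Dmc1, aided by Mnd1, helps to repair the cuts from the partner chromosome. Ascomycetes such as A. stygium also form asexual spores, the conidia, many of which carry pigments made by polyketide synthases.

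The names held unevenly against the other annotation. Among the T. fuciformis members, 44 of 45 had their nearest Nr protein in a tremellomycete genus, and 17 had a GO, KEGG or KOG entry naming meiosis. Among the A. stygium members, 35 had their nearest Nr protein in Rosellinia or another Xylariales genus (53.8%, against 64.9% of all A. stygium unigenes with a genus), and 8 had such an entry. In A. stygium 26 of the 65 members were polyketide synthases named after wA, the Aspergillus nidulans (Emericella nidulans) enzyme of yellow conidial pigment. The Nr hit of 10 of these 26 also names a polyketide synthase, and a hit to wA does not show that the product is a spore pigment. The S. pombe name "meiotically up-regulated gene" (mug) was carried by 14 T. fuciformis and 21 A. stygium members, and none of these had a GO, KEGG or KOG entry naming meiosis. No member matched karyogamy or homeobox.

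Summed FPKM per library ran from 524250 to 657997. The read depth is not known, so no counting interval is given. In the dual library T. fuciformis unigenes held 36.4% of the FPKM and A. stygium unigenes 59.0%, so each fungus was rescaled to the same total before ratios were taken. On that scale a deposited dual value is multiplied by 2.91 to compare it with T. fuciformis alone. Directions in dual rest on this step: in FPKM as deposited, the sums of all 22 T. fuciformis genes and of 33 of the 37 A. stygium genes were lower in dual than alone, the exceptions being CL2798, CL3407, Unigene13125 and Unigene12685. Less of a fungus and less RNA per cell cannot be told apart in such a mixture. Ratios are log2 of rescaled FPKM plus 1, which understates the differences of low genes, and a ratio is called past 2-fold at 1 or -1. Contact and dual were both set against the same alone library, so these comparisons are not independent. Several contigs of 1 assembly cluster can share sequence, and no source used here says how reads were divided among them. The 45 T. fuciformis members fell into 22 clusters or single unigenes and the 65 A. stygium members into 37, and sums over the member contigs of a cluster are given beside single contigs.

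At the limits of the rule, the member with the lowest level was CL138.Contig9 at 1.01 FPKM, 20.2 times its value in the other fungus. On the e-value, a swi10-like contig (CL384.Contig2) at 2.5e-22 lay inside, and Unigene18088, named after a regulator of conjugation and meiosis, at 1.3e-20 lay outside. The fungus limits left out 6 matches. One was Unigene11847, a receptor like Pheromone B alpha 1 receptor, with 3.31 FPKM in T. fuciformis alone, 2.80 in its contact library, 4.16 in dual, 3.25 in A. stygium contact and 4.03 in A. stygium alone. It was near the same level in all 5 libraries, including those of A. stygium. By the fungus limits it is not counted as a receptor of either fungus. Its nearest Nr protein is the mating-type a-factor pheromone receptor of Cryptococcus neoformans var. neoformans JEC21, and its origin was not tested.

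The members were mostly moderate in level. In T. fuciformis alone their median was 16.4 FPKM, with a range of 0.55 to 182, against a median of 11.0 for all T. fuciformis unigenes, and in contact it was 15.8 against 11.5. In A. stygium the median was 9.09 alone and 8.69 in contact, against 5.92 and 5.62 for all unigenes of that fungus. The 39 A. stygium members that were not polyketide synthases had medians of 19.2 and 17.6, and the 26 polyketide synthases had medians of 2.49 and 1.44. In the partner's libraries no T. fuciformis member exceeded 0.16 FPKM and no A. stygium member exceeded 0.13, a limit that the rule itself sets in part.

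Counted over members, the shares past 2-fold stood near or on either side of those of all unigenes. In T. fuciformis contact against alone, 2 of 45 members were higher (4.44%, against 10.4% of all unigenes) and 3 lower (6.67%, against 5.26%), with a median of 0.09 against -0.01. Of these, CL2956.Contig2 (0.55 FPKM alone, 3.48 in contact) and CL2956.Contig1 (1.47 and 0.0) each reached the 1 FPKM of the rule in only 1 of these libraries. At 4-fold 0 were higher (against 2.43%) and 0 lower (1.07%). In dual against alone 4 were higher (8.89%, against 12.6%) and 7 lower (15.6%, against 13.2%), with a median of -0.15 against -0.17. At 4-fold these were 1 (4.98%) and 1 (3.56%). In dual against contact 44 passed the filter, 1 higher (2.27%, against 9.65%) and 6 lower (13.6%, against 13.6%), and at 4-fold 0 (3.65%) and 1 (4.14%). Of the 11 members past 2-fold in dual against alone, 10 had other member contigs in their cluster, and for 7 of these the sum lay within 2-fold. Summed per cluster, 0 of 22 genes were past 2-fold in contact, and 0 were higher and 2 lower in dual, against alone. Without the rescaling 0 members were higher and 32 lower in dual against alone.

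In A. stygium contact against alone, 6 of 65 members were higher (9.23%, against 9.89% of all unigenes) and 11 lower (16.9%, against 11.3%), with a median of -0.26 against -0.13. All 6 higher members reached the 1 FPKM of the rule in contact only, and several of the 11 lower ones in alone only. Their directions were thus set in part by the rule, and the same limit applied to all unigenes. At 4-fold 1 was higher (against 2.93%) and 3 lower (3.05%). In dual against alone 59 passed, with 6 higher (10.2%, against 11.9%) and 6 lower (10.2%, against 14.8%), and at 4-fold 2 (3.90%) and 1 (4.98%). In dual against contact 61 passed, with 10 higher (16.4%, against 11.2%) and 5 lower (8.20%, against 10.9%), and at 4-fold 5 (2.60%) and 0 (3.59%). Without the polyketide synthases, 1 of 39 was higher and 2 lower in contact against alone. Summed per cluster, 0 of 37 genes were higher and 4 lower in contact, and 3 higher and 1 lower in dual, against alone.

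**Figure D1:**
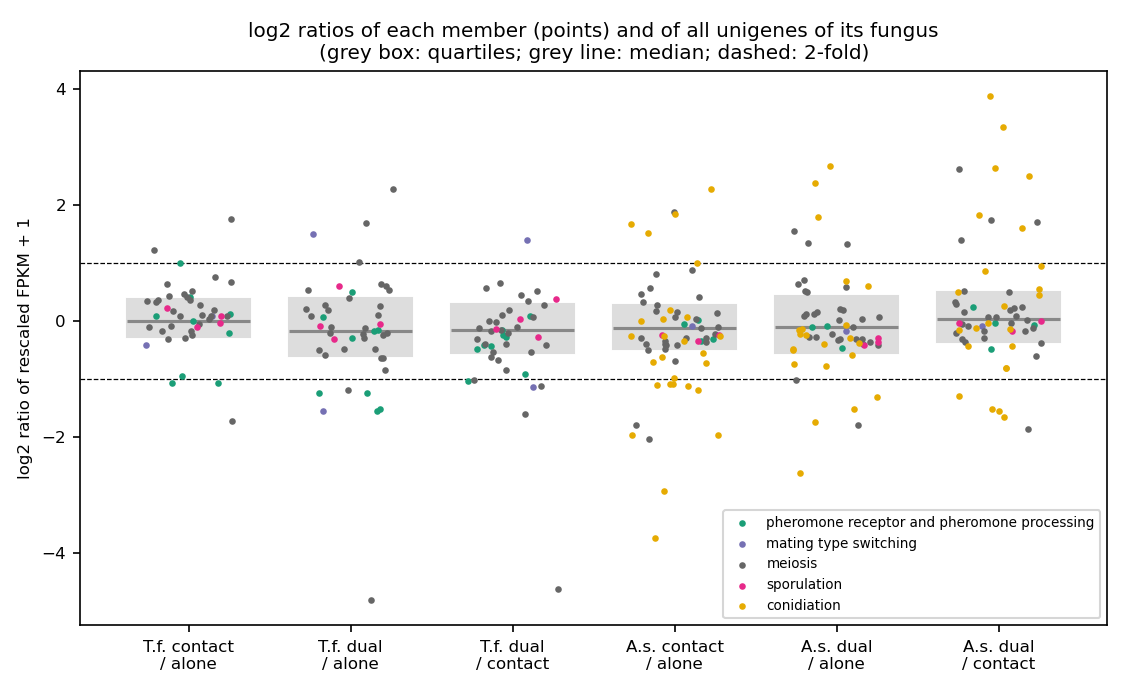
log2 ratio of rescaled FPKM plus 1 of every member that passed the filter (points, coloured by role) in the 6 comparisons, beside the quartiles (grey boxes) and median (grey lines) of all unigenes of that fungus; dashed lines mark 2-fold. Most points lie inside 2-fold, with points as far out as -4.81 for a T. fuciformis meiosis contig and 3.87 for an A. stygium conidiation unigene.

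Among the T. fuciformis members were 3 pheromone receptors, the membrane proteins that bind the partner's lipid-modified pheromone. Unigene5539, closest to the receptor BBR1 of Schizophyllum commune, had 182 FPKM alone, 202 in contact and 50.5 in dual, which is 147 on the scale of alone. Unigene4054, closest to PRA1 of Ustilago maydis, had 171, 186 and 52.2 FPKM, the last being 152 rescaled. Unigene14204, also BBR1-like, had 89.6 alone, 122 in contact and 43.3 in dual, or 126 rescaled. The 3 receptors ranked 581, 617 and 1349 of 15354 T. fuciformis unigenes in the alone library. Unigene5539 and Unigene4054 were the highest of all 45 members in each of the 2 T. fuciformis libraries. None of the 3 receptors was past 2-fold in any comparison after rescaling, while as deposited each was past 2-fold lower in dual than alone. Their contact to alone log2 ratios were 0.12, 0.09 and 0.41, and their dual to alone ratios -0.30, -0.17 and 0.49.

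In A. stygium no member was a pheromone receptor. Outside the rule, 4 contigs of CL545 carry the KEGG entry for the a-factor receptor and an Nr hit named putative pheromone receptor, with no SwissProt receptor hit. Their summed FPKM was 12.5 alone, 18.6 in contact and 14.0 in dual, a level well below those of the T. fuciformis receptors. That comparison is across 2 fungi and libraries scaled apart.

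**Figure D2:**
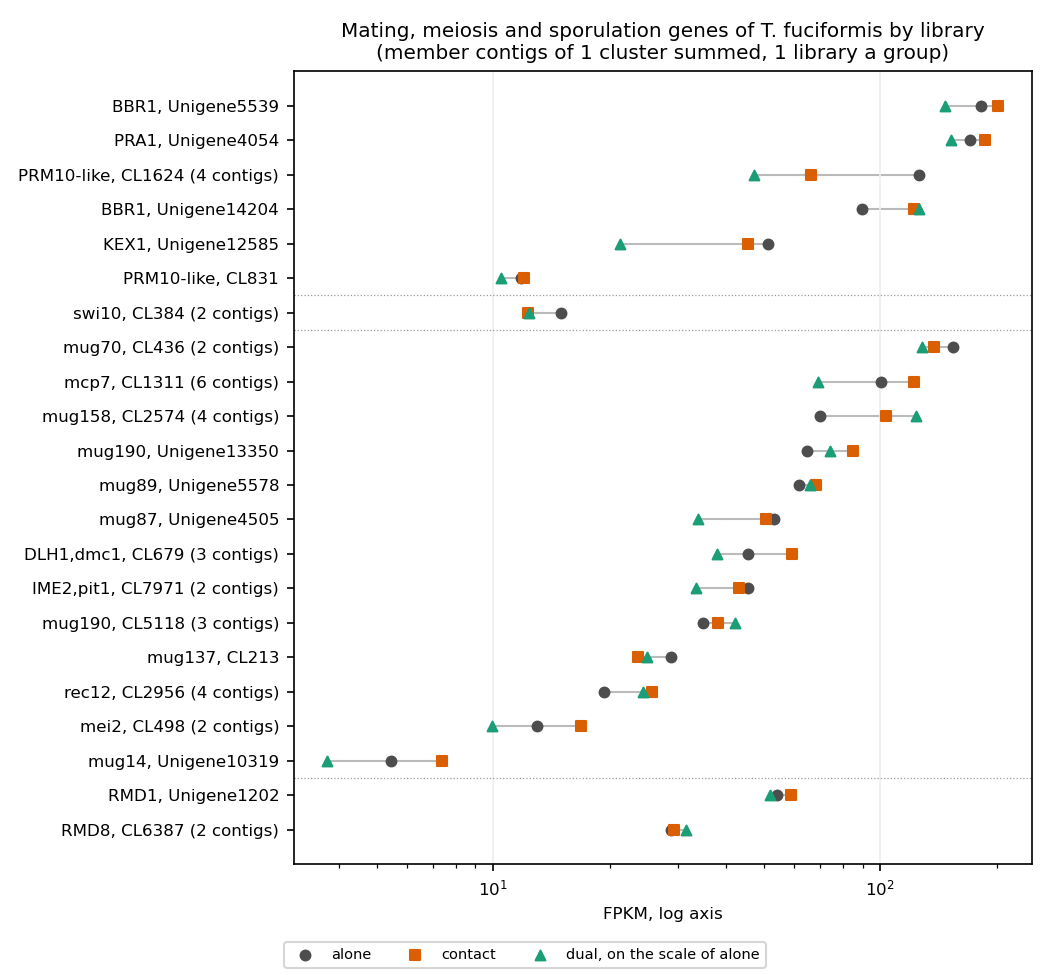
Level of each T. fuciformis gene (member contigs of 1 cluster summed) in FPKM on a log axis, alone (circles), in contact (squares) and in the dual library on the scale of alone (triangles), 1 library each; dotted lines part the roles. The receptors lie between 89.6 and 202 FPKM, while KEX1 and the PRM10-like cluster CL1624 have triangles far to the left of their circles.

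Other pheromone-named genes of T. fuciformis were lower in the dual library. KEX1 (Unigene12585), a carboxypeptidase that trims pheromone precursors in Saccharomyces cerevisiae, had 51.4 FPKM alone, 45.5 in contact and 7.31 in dual, or 21.3 rescaled. It was close between alone and contact (-0.21) and past 2-fold lower in dual, by a log2 ratio of -1.25 against alone and -1.04 against contact. Cluster CL1624, 4 contigs named after pheromone-regulated membrane protein 10, summed to 126 FPKM alone, 66.2 in contact and 16.2 in dual. Its ratios were -0.96 in contact and -1.40 in dual against alone, and -0.44 in dual against contact. The 3 main contigs, CL1624.Contig1 (26.7, 12.7 and 3.06 FPKM in alone, contact and dual), CL1624.Contig2 (48.3, 25.3 and 6.91) and CL1624.Contig3 (49.4, 23.8 and 5.58), followed the sum. InterPro names the protein a putative threonine and serine exporter, so its link to pheromone rests on the name. A further PRM10-like unigene, CL831.Contig1, had 11.8, 12.0 and 3.61 FPKM and was near equal in all 3 on the rescaled scale (-0.01 and -0.15 against alone).

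The A. stygium members of this role were like mam1 and KEX1, and none was past 2-fold. The contigs of CL2156, like mam1, which exports the M-factor pheromone in S. pombe, summed to 60.5 FPKM alone, 57.9 in contact and 37.2 in dual, with ratios of -0.12 and -0.14 against alone. Its contigs CL2156.Contig2, CL2156.Contig4 and CL2156.Contig5 had ratios of -0.11, -0.47 and -0.08 in dual against alone. KEX1 (Unigene2491) had 60.0, 50.2 and 31.2 FPKM, with ratios of -0.31 and -0.39. In dual against alone the KEX1-like genes of the fungi had -1.25 in T. fuciformis and -0.39 in A. stygium, a difference that was not tested.

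The relay downstream of the receptors was taken from a list of proteins described as G protein subunits or ras-like, and of gene names of the pheromone response. Only CDC42, FUZ7 and byr2 entered it by gene name. The G protein subunits, among them fadA, gg1 and GPA1, and the ras-like proteins, with RYL2 and cpc-2, entered by description only. Their link to the pheromone response rests on that wording. Of its 25 T. fuciformis unigenes none was past 2-fold in contact against alone (10.4% of all unigenes were higher and 5.26% lower), with a median log2 ratio of -0.20 against -0.01 for all unigenes. In dual against alone 0 were higher and 1 lower (12.6% and 13.2% of all unigenes), with a median of -0.63 against -0.17. The G protein alpha subunit fadA (CL3123.Contig3) had 256 FPKM alone, 213 in contact and 44.3 in dual, with ratios of -0.30 and -0.98 against alone. The gamma subunit gg1 (CL2783.Contig2) had 280, 249 and 51.0 FPKM, with ratios of -0.20 and -0.91. GPA1, another alpha subunit, was near equal, with 53.3, 55.6 and 20.8 FPKM. In A. stygium 16 unigenes of that list gave 0 higher and 0 lower in contact (9.89% and 11.3% of all), and 0 higher and 1 lower in dual (11.9% and 14.8%), against alone. The lower one was a RYL2-like small GTPase (CL206.Contig1) with 26.6, 17.2 and 7.13 FPKM, at -1.31. CL206.Contig2 was at 0.26, and RYL2 summed over both was at -0.33. The largest difference of the list in contact was RAS1 (Unigene5615) at -0.74 in A. stygium and RYL2 (CL417.Contig1) at -0.65 in T. fuciformis. The highest was cpc-2 (CL7151.Contig2), a G protein beta-like protein, with 468, 590 and 253 FPKM in A. stygium.

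Genes that mature and export pheromone, a list chosen after the values were seen, had 8 unigenes in T. fuciformis. In both contact and dual against alone 1 was higher and 0 lower (10.4% and 5.26% of all unigenes in contact, 12.6% and 13.2% in dual). That one was CL635.Contig2, like the farnesyltransferase subunit RAM1, with 1.58, 8.23 and 10.5 FPKM, at 1.97 and 3.82, while the 2 RAM1 contigs summed to 59.9, 55.5 and 20.7, at -0.15 and 0.01. In A. stygium 2 of 10 were higher and 1 lower in each of contact and dual against alone (9.89% and 11.3% of all in contact, 11.9% and 14.8% in dual). Summed per name, STE6, the a-factor exporter of S. cerevisiae, had 39.3 FPKM alone, 27.2 in contact and 9.41 in dual, with ratios of -0.56 and -0.51 against alone. In A. stygium STE6 had 57.3, 50.3 and 15.1 FPKM, with ratios of -0.24 in contact and -1.36 in dual against alone. STE14 of T. fuciformis, the methyltransferase of a-factor, was near equal at 105, 110 and 37.4 FPKM. The STE6-like A. stygium exporter was lowest in dual, while mam1-like CL2156 was near equal.

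**Figure D3:**
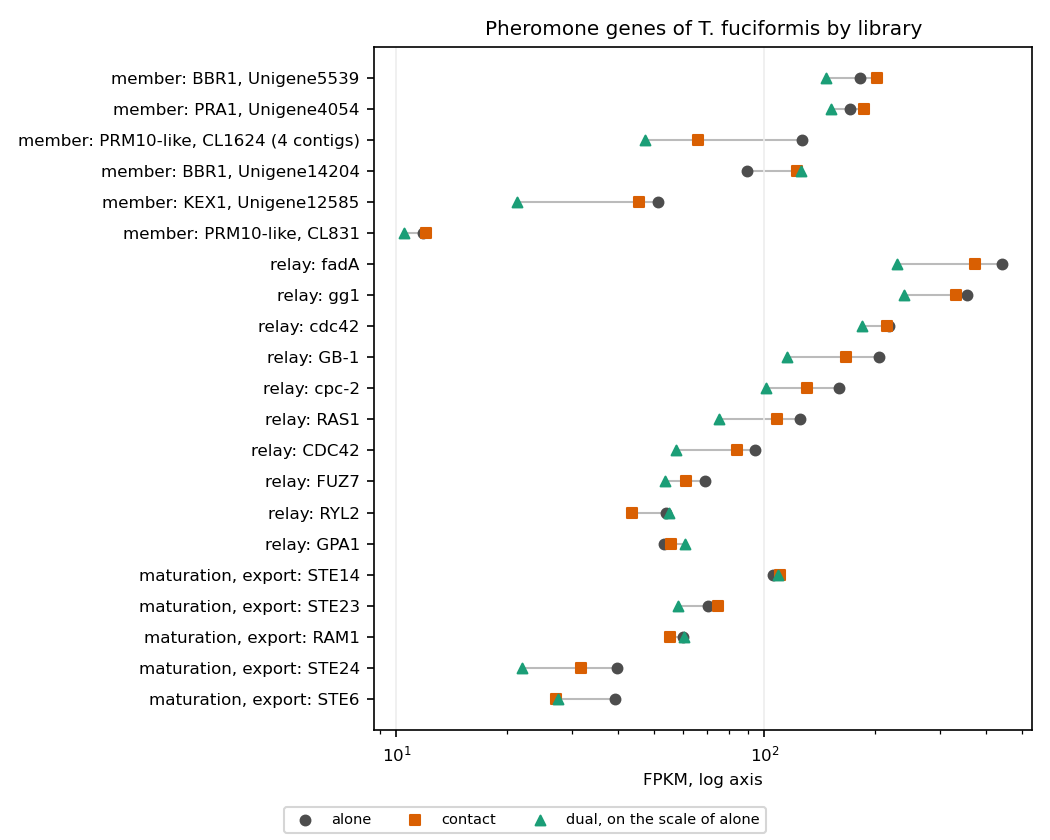
FPKM on a log axis of T. fuciformis pheromone members, the response relay and pheromone maturation genes (contigs of 1 name summed), in alone (circles), contact (squares) and dual on the scale of alone (triangles), 1 library each. Most triangles lie to the left of the circles, as for fadA at 443 FPKM alone, while the receptor Unigene14204 and GPA1 have theirs to the right.

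The mating-type name was carried by swi10, the S. pombe relative of the repair protein ERCC1. In T. fuciformis the 2 contigs of CL384 summed to 15.0 FPKM alone, 12.3 in contact and 4.26 in dual, with ratios of -0.31 and -0.26 against alone. CL384.Contig1 alone had 12.4, 9.38 and 1.30 FPKM, with -1.55 in dual against alone, and CL384.Contig2 had 2.66, 2.95 and 2.96, with 1.49. The contigs differed in opposite directions and their sum was near equal. The cluster has 5 T. fuciformis contigs, of which 3 have weaker swi10 hits, and over all 5 the ratios were 0.19 and 0.41 against alone, the other direction. In A. stygium swi10 (Unigene14107) had 16.3, 16.0 and 9.84 FPKM, and -0.09 and -0.17 against alone.

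Meiotic recombination genes were found in mycelia of both fungi. In T. fuciformis the 3 contigs of CL679, like the meiosis-specific recombinase Dmc1, summed to 45.5 FPKM alone, 59.2 in contact and 13.0 in dual, with ratios of 0.34 and -0.26 against alone. The 4 contigs of CL2956, like rec12, the S. pombe Spo11, summed to 19.3, 25.7 and 8.37 FPKM, with 0.36 and 0.33. The 6 contigs of CL1311, like mcp7, the S. pombe Mnd1, summed to 100.2, 122 and 23.8 FPKM, with 0.25 and -0.53. None of the 3 was past 2-fold as a sum, and over all 9 contigs of CL1311 the ratios were 0.15 and -0.46. One Mnd1-like contig, CL1311.Contig8, had 17.2 and 15.5 FPKM alone and in contact and was listed at 0 in dual, while the sum of its cluster was -0.53 against alone. CL1311.Contig9 had 6.0, 9.85 and 3.30 FPKM, a ratio of 0.63 in each of contact and dual against alone. The rec12-like CL2956.Contig4 had 9.03, 13.5 and 4.12 FPKM, at 0.52 and 0.39, and the Dmc1-like CL679.Contig1 had 10.3, 14.5 and 2.28, at 0.43 and -0.58.

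In A. stygium the 4 rec12-like contigs of CL2063 summed to 8.48 FPKM alone, 9.30 in contact and 6.20 in dual, near equal at 0.07 and 0.10 against alone, and at -0.22 and -0.16 over all 10 A. stygium contigs of the cluster, with CL2063.Contig6 at 5.24, 7.77 and 4.02. The rec14-like cluster CL7789, which in S. pombe works with rec12, had 25.1, 26.3 and 15.5 FPKM, also near equal at 0.01 and -0.14, and CL7789.Contig1 lay at -0.38 in dual against contact. MSC1 (Unigene12685), named for sister chromatid recombination in S. cerevisiae, had 4.96, 9.48 and 5.44 FPKM, with 0.81 and 0.63. The KEGG entry for Dmc1 was carried by 4 T. fuciformis unigenes and by 0 A. stygium unigenes in this table.

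The wider recombination list, members left out, held 35 T. fuciformis and 9 A. stygium unigenes. In T. fuciformis 1 was higher and 1 lower in contact against alone (10.4% and 5.26% of all unigenes). These were contigs of the same MSH5-like cluster, CL2008.Contig3 (0.0 FPKM alone, 3.04 in contact) and CL2008.Contig8 (4.35 and 0.59). The 6 MSH5-like contigs summed to 20.5 FPKM alone and 21.2 in contact, at 0.01. In dual against alone 34 passed the filter on low values, with 1 higher and 3 lower (12.6% and 13.2%). MSH4 (CL2937.Contig7), which acts on crossovers, had 8.31, 4.88 and 1.07 FPKM and -1.25 in dual against alone. Its 7 contigs summed to 38.3, 41.9 and 10.2 FPKM, at 0.09 and -0.35, within 2-fold. In A. stygium 0 were higher and 3 lower in contact against alone (9.89% and 11.3% of all unigenes). In dual against alone 0 were higher and 2 lower (11.9% and 14.8%). The highest unigene of this list in each fungus, Unigene11395 and Unigene4108, entered it by the gene name PAT1, which acetyl-CoA acetyltransferases also carry.

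Among the members, regulators that start or hold back meiosis were within 2-fold as sums. In T. fuciformis mei2 (CL498), an RNA-binding switch to meiosis in S. pombe, summed to 13.0, 16.9 and 3.40 FPKM, with 0.33 and -0.37 against alone. The kinase cluster CL7971, like IME2 of S. cerevisiae and pit1 of S. pombe, summed to 45.5, 43.2 and 11.5 FPKM, with -0.11 and -0.44, and CL7971.Contig2 was at -0.64 in dual against alone. In A. stygium the highest meiosis-named member was Unigene10441, like the S. pombe kinase ran1, which holds back conjugation and meiosis. It had 179.9 FPKM alone, 131 in contact and 105 in dual, with -0.51 and -0.22 against alone. Weaker hits, above the e-value limit, were past 2-fold as sums in both directions. Higher than alone in T. fuciformis were RMD1 (1.02 FPKM alone, 4.99 in dual), at 3.2 in dual, and mug158, at 1.01 in contact and 1.16 in dual. The mug158-like unigene was low and reached 1 FPKM in contact only. Among the lower sums were those of the regulator names NDT80 and ran1. NDT80-like contigs of A. stygium were at -1.03 in contact against alone. The ran1-like unigenes of T. fuciformis, low in level, summed to 3.58, 0.19 and 0.20 FPKM, at -2.36 and -1.79 against alone. Each reached 1 FPKM in the alone library only, so the limit that assigned them to T. fuciformis set this direction in part.

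The mug-named genes gave 14 T. fuciformis and 21 A. stygium members. In T. fuciformis contact 1 of 14 was past 2-fold higher and 0 lower (10.4% and 5.26% of all unigenes), and in dual 2 were higher and 0 lower (12.6% and 13.2%), against alone. The 4 contigs of mug158 (CL2574), which KEGG places in ergothioneine synthesis, summed to 69.8 FPKM alone, 104 in contact and 42.5 in dual, with 0.53 and 0.82. CL2574.Contig4 had 6.24, 15.9 and 7.33 FPKM and was past 2-fold higher in both, at 1.23 and 1.68. The highest mug-named member was CL436.Contig1, like mug70, with 118, 107 and 28.8 FPKM and -0.18 and -0.48 against alone, and CL436.Contig2 had 36.6, 30.6 and 15.2. Contigs of mug137 (CL213.Contig3) and mug190 (CL5118.Contig2), and mug14 (Unigene10319), had -0.32, -0.05 and 0.36 in contact and -0.21, 0.61 and -0.48 in dual against alone. In A. stygium mug158 (CL1846) summed to 53.0, 69.6 and 44.7 FPKM, with 0.33 and 0.30, its contigs CL1846.Contig1 at -0.49 and CL1846.Contig2 at 0.56 in contact. After rescaling, the sum for this name lay above equal in both fungi and both comparisons with alone, within 2-fold, and as deposited it lay below equal in dual.

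In A. stygium 0 mug-named members were past 2-fold in either direction in contact against alone (9.89% and 11.3% of all unigenes), and 3 were higher and 1 lower in dual against alone (11.9% and 14.8%). The 3 higher ones were the contigs of CL2798, like mug157. They summed to 73.5 FPKM alone, 63.2 in contact and 131 in dual, or 193 rescaled, with ratios of -0.27, 1.39 and, in dual against contact, 1.66. CL2798.Contig1 had 35.7, 27.7 and 61.2 FPKM, CL2798.Contig2 had 14.1, 16.5 and 28.8, and CL2798.Contig3 had 23.7, 19.0 and 41.4. All 3 contigs were highest in dual. The other mug157-like genes stayed near equal, CL6200 at -0.07 and Unigene7043 at 0.12 in dual against alone. The lower member was CL5085.Contig4, like mug72, with 35.3, 27.4 and 11.7 FPKM and -1.02 in dual against alone, while CL5085.Contig3 had 8.78, 17.2 and 9.91 FPKM and 0.70. mug14 (Unigene14226) had 62.8, 87.6 and 44.7 FPKM, at 0.42 and 0.06. KEGG names a glycoside hydrolase for CL2798, and no meiotic role of it is annotated here.

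The sporulation-named members were 4 in T. fuciformis and 3 in A. stygium, and 0 were past 2-fold, numbers too small to set against the shares of all unigenes. RMD1 of T. fuciformis (Unigene1202) had 54.0, 58.7 and 17.8 FPKM, with 0.08 and -0.06 against alone, and RMD8 (CL6387.Contig2) had 6.48, 7.93 and 3.49, at 0.23 and 0.60. In A. stygium pit1 (Unigene5225), a kinase of S. pombe sporulation, had 51.0, 44.5 and 25.9 FPKM, with -0.25 and -0.42.

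**Figure D4:**
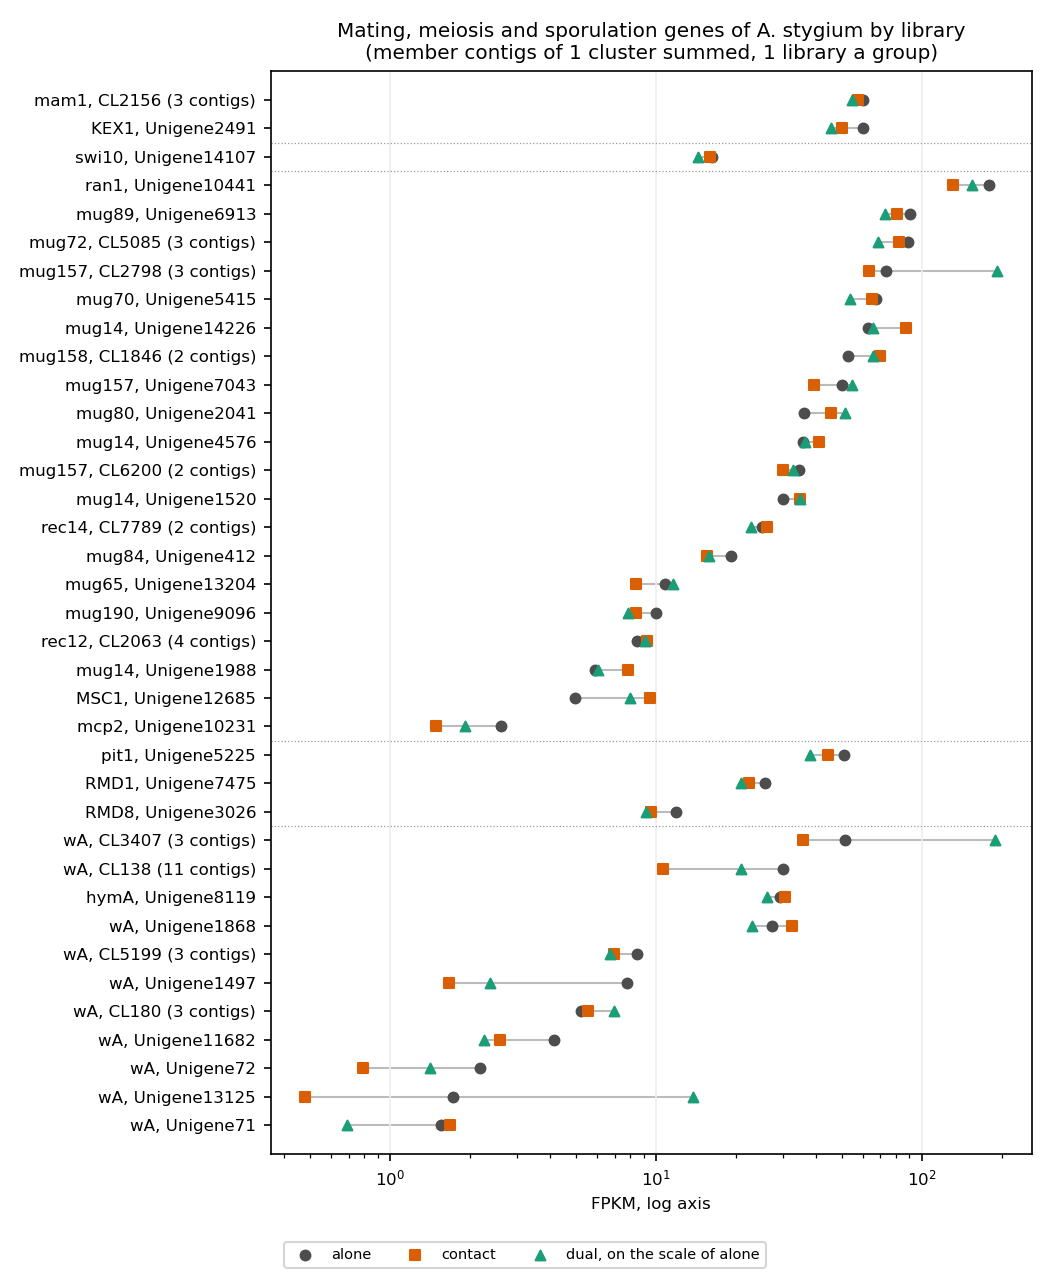
Level of each A. stygium gene (member contigs of 1 cluster summed) in FPKM on a log axis, alone (circles), in contact (squares) and in dual on the scale of alone (triangles), 1 library each; dotted lines part the roles. In mug157 CL2798 and wA CL3407 the triangles lie near 193 and 189 FPKM, right of both other symbols, and several wA-named genes have squares to the left of their circles.

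The conidial-pigment-like polyketide synthases were the members that differed most between A. stygium libraries, and they differed in both directions. In contact against alone all 14 synthases past 2-fold were under 10 FPKM in both libraries, and the 3 of at least 10 FPKM were at -0.26, -0.71 and 0.18. Every higher one of the 14 reached the 1 FPKM of the rule in contact only. The 3 contigs of CL3407 summed to 51.7 FPKM alone, 35.7 in contact and 129 in dual, or 189 rescaled, with -0.58 in contact and 1.86 in dual against alone, and 2.45 in dual against contact. CL3407.Contig1 had 14.4, 12.4 and 52.2 FPKM and CL3407.Contig2 had 30.4, 19.2 and 72.8. Both contigs were highest in dual, while the third, CL3407.Contig4, had 6.82, 4.10 and 3.94. Unigene13125 had 1.73 FPKM alone, 0.48 in contact and 9.41 in dual, with -1.20 and 2.67 against alone.

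Some other synthases were lower in contact than alone. The 11 member contigs of CL138 summed to 30.2 FPKM alone, 10.7 in contact and 14.3 in dual, with -1.51 and -0.51 against alone. The fungus rule, which does not use the dual library, left out 4 further wA-named contigs of CL138, with 0.94 FPKM alone and 3.88 in dual together. With them the sum was 31.1, 11.1 and 18.2 FPKM, at -1.50 and -0.21, a comparison chosen after seeing the data. CL138.Contig5 had 6.41 FPKM alone, was listed at 0 in contact and had 3.24 in dual. CL138.Contig2 had 9.75, 2.19 and 6.01 FPKM and CL138.Contig12 had 5.85, 0.33 and 1.39. Unigene1497 had 7.78, 1.66 and 1.62 FPKM, with -1.97 and -1.52. Unigene1868, the highest single synthase unigene in contact, was near equal at 27.5, 32.6 and 15.7 FPKM, with 0.18 and -0.25. As near-identical copies can share reads, single contig values of this family are uncertain. hymA (Unigene8119), a conidiophore protein of A. nidulans and no polyketide synthase, was near equal at 29.4, 30.5 and 17.9 FPKM.

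**Figure D5:**
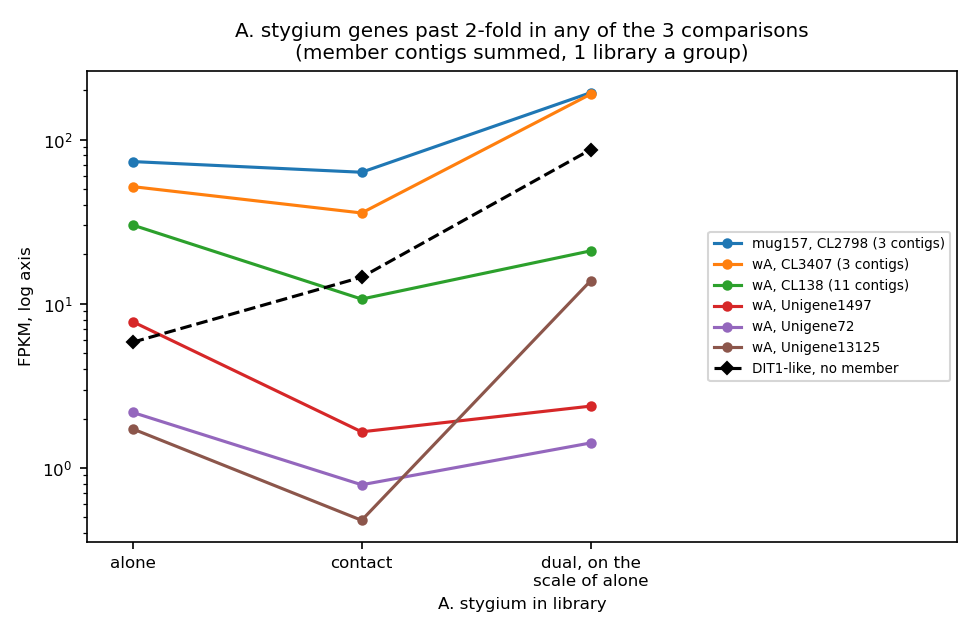
FPKM on a log axis of the 6 A. stygium genes past 2-fold in at least 1 comparison (member contigs summed, solid lines), and of the DIT1-like cluster that is no member (dashed), in alone, contact and dual on the scale of alone, 1 library each. The lines for mug157 CL2798, wA CL3407 and wA Unigene13125 end highest in dual, and the wA genes CL138, Unigene1497 and Unigene72 start highest alone.

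Genes of the spore wall, a list beside the members, included DIT1-like genes that were past 2-fold higher in contact and in dual than alone, in both fungi. DIT1 makes a precursor of the dityrosine layer of the S. cerevisiae spore wall. A spore wall role of the genes here rests on that name. The Nr hit of CL5261 is named pyoverdine/dityrosine biosynthesis protein, and that of Unigene967 is a hypothetical protein. In T. fuciformis Unigene967 had 25.1 FPKM alone, 85.6 in contact and 34.5 in dual, or 101 rescaled, with 1.71 and 1.98 against alone. As deposited its dual value was still above alone, by less than 2-fold. In A. stygium CL5261.Contig1 had 1.52 alone, 12.0 in contact and 53.1 in dual, or 77.9 rescaled. Its second contig, CL5261.Contig2, was lower in contact, with 4.31, 2.49 and 6.11. The cluster summed to 5.83, 14.5 and 59.2 FPKM, with 1.19 and 3.78 against alone. T. fuciformis had 13 unigenes on the list, 8 of them like the chitin deacetylase cda1 of S. pombe. In contact against alone 2 of the 13 were higher and 0 lower (10.4% and 5.26% of all unigenes). One of these, Unigene17927, was listed at 0 alone and had 1.70 FPKM in contact. In dual 10 passed the filter, with 3 higher and 0 lower (12.6% and 13.2% of all). SWP1 (CL3287.Contig1), named after a microsporidian spore wall protein, had 4.19, 3.31 and 10.6 FPKM, with -0.32 and 2.71, and KEGG names it a glucosidase. A. stygium had 2 unigenes on the list, both of CL5261. The highest T. fuciformis unigene of the list, a chitin deacetylase (Unigene5530), had 159, 111 and 36.1 FPKM, at -0.55 and -0.60.

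Regulators of development numbered 8 unigenes in T. fuciformis, of which 0 were past 2-fold in contact against alone (10.4% of all unigenes were higher and 5.26% lower). In dual against alone 1 was higher and 1 lower (12.6% and 13.2%). Of 10 in A. stygium 1 was higher and 1 lower in contact (9.89% and 11.3% of all unigenes), and 1 higher and 1 lower in dual (11.9% and 14.8%), against alone. Counts this small cannot be told from the shares of all unigenes. The regulator of G protein signalling flbA (Unigene8277) was the highest in T. fuciformis, with 543, 542 and 151 FPKM and ratios of -0.04 and -0.30, and the steA-like CL55.Contig6 had 10.6, 8.90 and 1.45, at -0.27 and -1.21. The 6 steA-like unigenes of T. fuciformis were contigs of CL55 and the separate Unigene10186. They summed to 105, 102 and 40.5 FPKM, at -0.09 and 0.16, so the sum does not follow CL55.Contig6. Unigene10186 by itself was at -0.11 and 0.51. In A. stygium the highest was steA (CL5995.Contig2), a relative of the mating factor Ste12, with 260, 198 and 115 FPKM and ratios of -0.45 and -0.63. A white collar 1-like photoreceptor gene (Unigene13246, named after its values were seen) had 24.5 FPKM alone, 72.9 in contact and 15.2 in dual, but the other white collar 1-like unigene, Unigene8024, with the stronger hit, had 21.1, 16.1 and 11.5, at -0.43 in contact. The stuA contig CL2107.Contig2 had 13.0, 2.87 and 3.78 FPKM, while the 4 stuA contigs summed to 178.7, 133 and 100.5, at -0.49 and -0.28.

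Among the 11 gene names found in both fungi (KEX1, RMD1, RMD8, mug14, mug158, mug190, mug70, mug89, pit1, rec12 and swi10), only KEX1 of T. fuciformis was past 2-fold as a sum, in the 2 comparisons with dual. For rec12 the contact to alone ratios were 0.36 in T. fuciformis and 0.07 in A. stygium. For mug158 they were 0.53 and 0.33.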

How the data were processed

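The authors deposited 1 table of FPKM for de novo assembled unigenes with their database hits. Trizol RNA and standard Illumina libraries were used, per the labels' protocols. The sources used here name no assembler, aligner or counting tool. Further value columns in the table numbered 0. FPKM was summed per fungus and rescaled to 1000000 in each library, and log2 ratios were taken with a pseudocount of 1 where either compared library reached 1 FPKM. The deposited FPKM hold no log2 values; these were computed here. A ratio was called past 2-fold, with 4-fold as an alternative. Named were all pheromone and mating members of at least 5 FPKM, the highest of each role, the 5 largest increases and decreases per comparison, and the highest and most different of each list; some named by this rule are not reported here. Other members are named to account for their clusters, chosen after their values were seen. The members and lists were chosen with earlier results of these data known. Scripts used Python 3.11.15, pandas 2.3.3, numpy 2.4.6 and matplotlib 3.10.9 and were checked on simulated data. With 1 library per group no test was run.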

Additional observations from a re-analysis of the deposited data

How the results depend on the processing

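No paired analysis was possible because each group has 1 library. Counts below are members past 2-fold, higher then lower, in the order T. fuciformis contact to alone, dual to alone and dual to contact, then the same for A. stygium. As reported they were 2 and 3, 4 and 7, 1 and 6, then 6 and 11, 6 and 6, 10 and 5. With FPKM as deposited they were 2 and 3, 0 and 32, 0 and 39, then 5 and 6, 3 and 7, 8 and 7, as the median of all unigenes in dual against alone shifted by -1.25 in T. fuciformis and -0.45 in A. stygium (against contact, -1.29 and -0.52). At an e-value limit of 1e-50 they were 1 and 2, 2 and 4, 0 and 2, then 3 and 7, 6 and 4, 9 and 3. With at least 10 FPKM they were 1 and 2, 1 and 7, 0 and 4, then 0 and 0, 5 and 1, 5 and 0. With contigs of a cluster summed, or member contigs alone summed (chosen after seeing the data), they were 0 and 0, 0 and 2, 0 and 1, then 0 and 4, 3 and 1, 4 and 0. At 4-fold they were 0 and 0, 1 and 1, 0 and 1, then 1 and 3, 2 and 1, 5 and 0. Leaving out the polyketide synthases, also chosen after seeing the data, gave 1 and 2, 3 and 2, 4 and 1 in A. stygium. Without the filter, dual to contact in T. fuciformis had 2 higher, and with a ratio of 100 between the fungi contact to alone had 1 higher. A pseudocount of 0.1 kept every count within 1.5 times. CL384.Contig1 changed sign when summed, from -1.55 to 0.41 over all contigs in dual against alone, and from -1.14 to 0.22 over all contigs and 0.04 over member contigs in dual against contact. Apart from the construction of each alternative, the cause was not tested. Of 35 named ratios past 2-fold, 294 of 322 alternative values stayed past 2-fold in the same direction. FPKM without read counts limits what low contigs can show.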

Other observations

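Hits above the e-value limit numbered 112, 56 in T. fuciformis, 42 in A. stygium and 14 in neither. In A. stygium con-8, named after a Neurospora crassa conidiation gene, had 837 FPKM alone, 606 in contact and 475 in dual, with log2 ratios of -0.52 and -0.26 against alone. In T. fuciformis con-6, a gene of the same kind, summed to 94.7, 138 and 41.0 FPKM over 4 contigs, with 0.50 and 0.33. NDT80-like contigs of A. stygium, named after the meiotic transcription factor of S. cerevisiae, summed to 59.6, 30.2 and 25.3 FPKM, with -1.03 and -0.68. rec8-like contigs of T. fuciformis, named after the meiotic cohesin, summed to 39.9, 47.8 and 12.9 FPKM, with 0.22 and -0.09. Homeodomain names appeared only among these weaker hits and the Nr names. HD-3 of T. fuciformis had 68.3, 61.5 and 11.0 FPKM, with -0.19 and -1.07, and HOY1 of A. stygium had 139, 98.0 and 55.7, with -0.56 and -0.76.

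A PRM7-like unigene, CL4720.Contig2, with a weak hit (e-value 1.8e-06), was listed at 0 in the 4 single-fungus libraries and had 47.7 FPKM in dual. It was assigned to neither fungus. As a contig of an assembly cluster it may share reads with other contigs, which are not given here. The other PRM7-like unigene, CL2407.Contig4 of T. fuciformis, had 411 FPKM alone, 250 in contact and 71.1 in dual, with -0.75 and -0.99 against alone.

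Unigene11813 and Unigene13283, whose nearest Nr protein is the alpha pheromone of Cryptococcus neoformans var. neoformans JEC21, were at like levels in all 5 libraries. Unigene11813 had 602 FPKM in T. fuciformis alone, 650 in its contact library, 696 in dual, 635 in A. stygium contact and 645 in A. stygium alone. Unigene13283 had 546, 608, 664, 585 and 632 in the same order. Of 810 unigenes assigned to neither fungus with at least 1 FPKM, 321 had their nearest Nr hit in that strain. The receptor-like Unigene11847 also had its nearest Nr hit there.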
